A study of Mus musculus with 13 samples.

Results

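The 10 tubulin genes *Tuba1a*, *Tuba1b*, *Tuba4a*, *Tuba8*, *Tubb2a*, *Tubb2b*, *Tubb3*, *Tubb4a*, *Tubb4b* and *Tubb5*, 4 for α-tubulin and 6 for β-tubulin, were followed through the development of mouse proprioceptive sensory neurons (pSNs). They were chosen by name, as the α- and β-tubulin genes that neurons are known to use, from the 50508 genes listed in the count tables, of which 30658 had a UMI (unique molecular identifier, which marks 1 captured RNA molecule) in any well. Single tdTomato+ neurons of dorsal root ganglia (DRG) had been sorted into 13 plates of 96 wells, and 586 of them, those that had passed the filters of the study, were used. Adult neurons (older than 56 days, 5 plates, 208 neurons from 6 animals), p12 pSNs (4 plates, 154 neurons, 4 animals) and p0 pSNs (2 plates, 55 neurons, 6 animals) came from mice of either sex that carried PV:Cre, Rx3:Flp and the Ai65 reporter, each on 1 allele (+/-), so that a cell turns red only once PV:Cre and Rx3:Flp have both been active in it or its forebears. At e14.5 (2 plates, 169 neurons, 2 animals) tdTomato came from the TrkC:tdTomato allele in place of these, which also labels *Rx3*+ neurons without *PV*. Stage and reporter cannot be told apart in comparisons with e14.5. Of the 208 adult neurons, 166 belong to 5 numbered clusters and 42 to none (non-proprioceptor classes or clusters under 10 cells, per the paper's supplement). Of the 169 at e14.5, 40 belong to clusters 3 and 4, which the paper proposes are *TrkC:tdTomato*+ neurons other than proprioceptors. All are in the stage values below, and the values that move without them are given. The adult neurons came from 3 experiments, and which plates share an experiment or an animal is not given, so p-values measure the spread between plates, which may in part be technical.

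Microtubules are hollow tubes built from dimers of α- and β-tubulin, each of which is encoded by several genes, the isotypes. In an axon they are the tracks of long-range transport and give the growing tip its support. The isotypes are alike over most of their length and differ mainly in a short acidic tail at the end of the protein, which stays on the outside of the microtubule and is read and modified by many enzymes. On most α-tubulins the tail ends in a tyrosine, which is removed and added back in a cycle that marks long-lived and newly made microtubules.

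The coding ends of 2 α-tubulin and 4 β-tubulin genes are shown because the isotypes differ there, and because near-identical copies limit what a 3′ count can tell apart. Each line gives the last 20 codons and the stop codon, 5′ to 3′ on the coding strand, from the GENCODE vM21 annotation of GRCm38, with the last amino acid codon in capitals. They lie in the last coding exon, at chr1:75215622-75215684, minus strand, chr6:121226017-121226079, plus strand, chr13:34074468-34074530, minus strand, chr13:34127471-34127533, minus strand, chr8:123421620-123421682, plus strand, and chr17:35834982-35835044, minus strand, in the order printed.
Tuba4a: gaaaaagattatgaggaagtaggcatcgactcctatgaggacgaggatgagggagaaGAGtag
Tuba8: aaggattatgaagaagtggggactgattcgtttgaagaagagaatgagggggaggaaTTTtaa
Tubb2a: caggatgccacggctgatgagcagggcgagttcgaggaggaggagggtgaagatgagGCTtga
Tubb2b: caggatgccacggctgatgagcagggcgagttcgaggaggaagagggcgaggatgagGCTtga
Tubb3: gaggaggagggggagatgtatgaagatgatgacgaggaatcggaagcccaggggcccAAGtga
Tubb5: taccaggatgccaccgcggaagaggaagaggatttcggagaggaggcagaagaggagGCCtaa
*Tuba4a* ends in GAG, for glutamate, and *Tuba8* in TTT, for phenylalanine, so neither encodes a final tyrosine. The coding sequences of *Tuba1a* and *Tuba1b* were identical at 98.3% of aligned bases, and those of *Tubb2a* and *Tubb2b* at 96.5%. Of all windows of 58 bases in the transcript, 71.1% for *Tuba1a* and 73.2% for *Tuba1b* also occurred in another gene or pseudogene (among them each other and *Tuba1c*), as did 47.3% for *Tubb2a*, 36.8% for *Tubb2b* and 46.4% for *Tubb4b* (in its case pseudogenes). In the last 500 bases, where 3′ tags fall, the shares were 55.5%, 63.0%, 39.5%, 0% and 30.5% in the same order. How reads that fit several places were counted is not given in the sources used here, so the levels of *Tuba1a*, *Tuba1b*, *Tubb2a* and *Tubb4b* are uncertain by whatever was split between copies. No such window was found in *Tuba8*, *Tubb3*, *Tubb4a* or *Tubb5*, and 0.539% of those in *Tuba4a*.

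The kept neurons of a plate held between 680212 and 2387288 UMIs, of which between 6187 and 20099 were of the 10 tubulin genes. Mean depth was 9669 and 13061 UMIs per neuron on the e14.5 plates and between 21753 and 65165 on the later ones. *Pvalb*, the gene of PV and a defining marker of these neurons, differed between stages. It stood at 627 to 630 CPM (the gene's UMIs scaled to an equal total per plate) at e14.5 and 3493 to 3624 at p0. Later it stood at 2807 to 3415 at p12 and 1722 to 2286 in the adult. The 7 proprioceptor markers together ran from 2193 to 2404 CPM at e14.5 and 5294 to 5519 at p0. At p12 they ran from 4460 to 4943 CPM and in the adult from 3391 to 3688. Single ones ran either way. *Whrn* stood at 1.02 to 1.10 CPM at e14.5 and 81.3 to 107 in the adult, and *Runx3* at 117 to 136 and 26.4 to 53.3. The 7 markers of other sensory neurons together ran from 113 to 169 CPM at e14.5 (5 of 7 with a UMI, *Scn10a* and *Calca*, of nociceptors, at 0), 51.9 to 67.4 at p0 (6 of 7, *Scn10a* at 0), 43.7 to 238 at p12 (7 of 7) and 134 to 296 in the adult (6 of 7, *Scn10a* at 0). The 10 glial markers together ran from 88.0 to 106 CPM at e14.5 (6 of 10 with a UMI, with *Sox10*, *Prx* and *Kcnj10* among those at 0), 478 to 481 at p0 (10 of 10), 233 to 719 at p12 (9 of 10, *Prx* at 0) and 267 to 804 in the adult (10 of 10). *Apoe* alone stood at 0 and 7.15 CPM at e14.5, 210.5 to 225 at p0, 124 to 485 at p12 and 199 to 597 in the adult, in wells that had been filtered on glial transcripts, *Apoe* among them. The part of RNA from glia or other neurons in the levels below was not tested. The same 96 well barcodes recur on all 13 plates and mark different neurons on each. Levels are given as CPM of the summed UMIs of a plate, so they are relative to all RNA captured. Because 1 captured molecule gives 1 UMI whatever its length, shares of the 10 genes' UMIs can be set side by side, but the order of genes is uncertain wherever *Tuba1a*, *Tuba1b*, *Tubb2a* or *Tubb4b* is involved, since part of their reads may be split between copies.

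Tubulin as a whole fell with age. The 10 genes made up 1.52 and 1.40% of all UMIs on the e14.5 plates and 1.47 and 1.40% at p0, against 1.22, 1.11, 0.810 and 0.813% at p12 and 0.866, 0.834, 0.724, 0.752 and 0.781% in the adult. No p12 or adult plate reached the level of an e14.5 or p0 plate (0.879% ± 0.169 over 9 plates against 1.45% ± 0.0582 over 4, SD; exact permutation test, two-sided p = 0.00280, the smallest that 9 plates against 4 allow). Stages were joined for this test to reach a p under 0.05, which e14.5 and p0, with 2 plates each, cannot give between adjacent stages. It takes the plates of joined stages as alike, though those of e14.5 and p0 also differ in reporter. The same holds for the tests of later against earlier plates below. Adult and p12 plates overlapped, with a difference of -0.197 percentage points (exact permutation p = 0.111). The α-tubulin genes took 41.0% ± 0.317 of the tubulin UMIs at e14.5 (SD, n = 2 plates), 52.3% ± 0.494 at p0 (n = 2), 49.6% ± 1.58 at p12 (n = 4) and 47.3% ± 1.29 in the adult (n = 5), with p0 the highest. Most of these UMIs are of *Tuba1a* and *Tuba1b*, so the percentages carry the uncertainty over their copies.

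The make-up of the tubulin pool was turned over between the embryo and the adult. At e14.5 *Tubb5* and *Tuba1a* together supplied 70.6% ± 0.173 of the tubulin UMIs (SD, n = 2 plates). This fell to 52.3% ± 1.37 at p0 (n = 2), 43.9% ± 5.43 at p12 (n = 4) and 32.6% ± 0.556 in the adult (n = 5). By UMIs summed over all kept neurons of a plate, the order of the genes at e14.5 was *Tubb5*, *Tuba1a*, *Tubb3*, *Tuba1b*, *Tubb2a*, *Tubb4a*, *Tubb2b*, *Tubb4b*, *Tuba4a* and *Tuba8*, with no overlap between neighbours over the 2 plates. The first 2 cannot be ordered in single neurons, where the median share was 34.3% for *Tuba1a* and 33.9% for *Tubb5*. Median levels of *Tuba1a* and *Tubb5* were 5625 and 3151 CPM in e14.5 cluster 1, and 4744 and 6102 CPM in cluster 2. In the adult the order by summed UMIs was *Tubb3*, *Tuba1a*, *Tuba1b*, *Tubb5*, *Tubb4a*, *Tubb4b*, *Tuba4a*, *Tubb2a*, *Tuba8* and *Tubb2b*. There the ranges of neighbours over the 5 plates overlapped for *Tubb3* and *Tuba1a*, *Tuba1a* and *Tuba1b*, *Tubb5* and *Tubb4a*, *Tubb4a* and *Tubb4b*, and *Tuba4a* and *Tubb2a*, so these pairs cannot be ordered. In the summed UMIs the first place passed from *Tubb5* at e14.5 to *Tuba1a* at p0 and p12, and to *Tubb3* and *Tuba1a* in the adult.

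**Figure D1:**
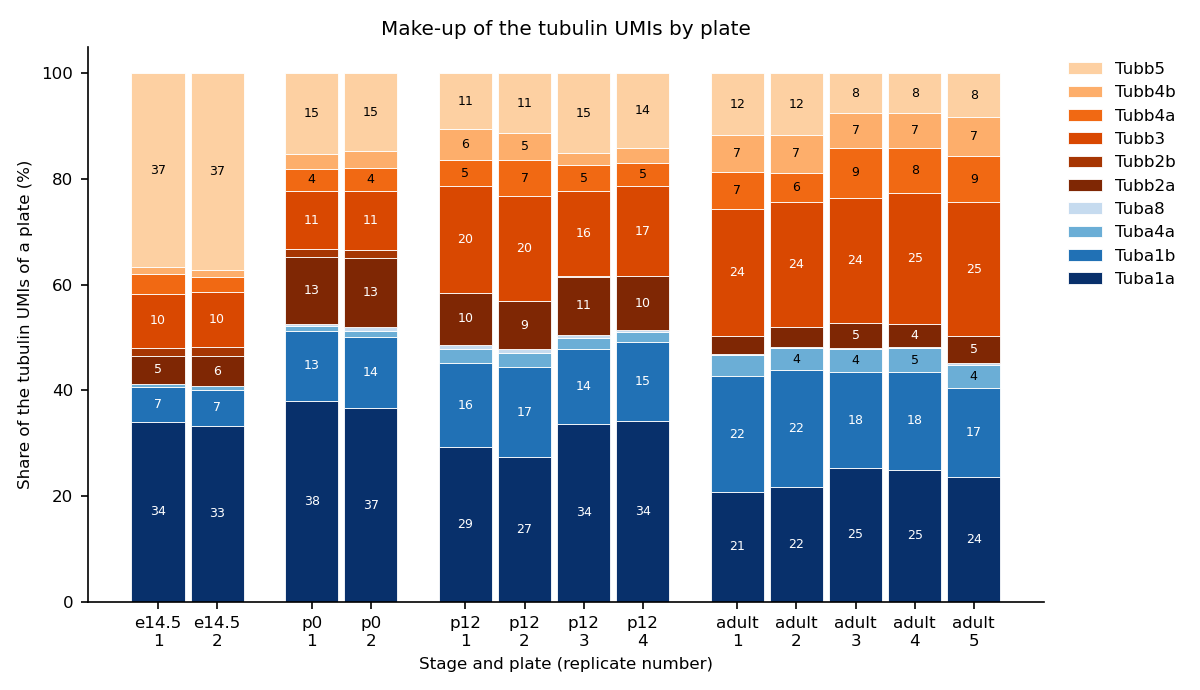
Share of the UMIs of 10 tubulin genes taken by each gene (y axis, percent) on each of the 13 plates (x axis, stage and replicate), with α-tubulin genes in blue and β-tubulin genes in orange. *Tubb5* takes 36.7 and 37.2% on the e14.5 plates and between 7.51 and 11.6% on the adult plates, while *Tubb3* widens from 10.3 and 10.4% to between 23.7 and 25.4%.

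Each adjacent pair of stages was compared with edgeR's quasi-likelihood test on the plate sums, with p-values adjusted (Benjamini-Hochberg) over all genes tested and a call at an adjusted p under 0.05. Between e14.5 and p0, 3 of the 10 genes were called higher and 1 lower, where 27.8% of all 11939 genes tested were called. From p0 to p12, 4 were called lower and none higher in this fit (all genes, 18.1%), and from p12 to adult 5 were called lower and none higher (all genes, 14.1%). Over the whole span from p0 to adult, which shares 1 reporter strategy, 5 were called lower and 1 higher (all genes, 34.4%). *Tuba4a* was called higher in some other fits of each later step, as given with that gene. Without the 42 adult neurons of no numbered cluster the same genes were called from p12 to adult and from p0 to adult (all genes, 13.9% and 34.1%), and from p0 to p12 3 of the 4, without *Tubb5* (all genes, 17.7%). With e14.5 clusters 1 and 2 alone no call of the 10 genes changed. The median log2 fold change of the 10 genes was 0.44, -0.27, -0.34 and -0.81 in the 4 comparisons as first given, beside 0.01, 0.02, 0.04 and 0.03 for all genes tested. These comparisons share plates and are not independent of each other. On every adult plate the 42 neurons held more tubulin than the clustered ones, 0.826 to 1.10% against 0.685 to 0.847% of all UMIs, with *Tuba1a* at 2181 to 2576 against 1693 to 1782 CPM, and their proprioceptor markers together were lower, at 2346 to 3250 against 3479 to 3913 CPM.

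**Figure D2:**
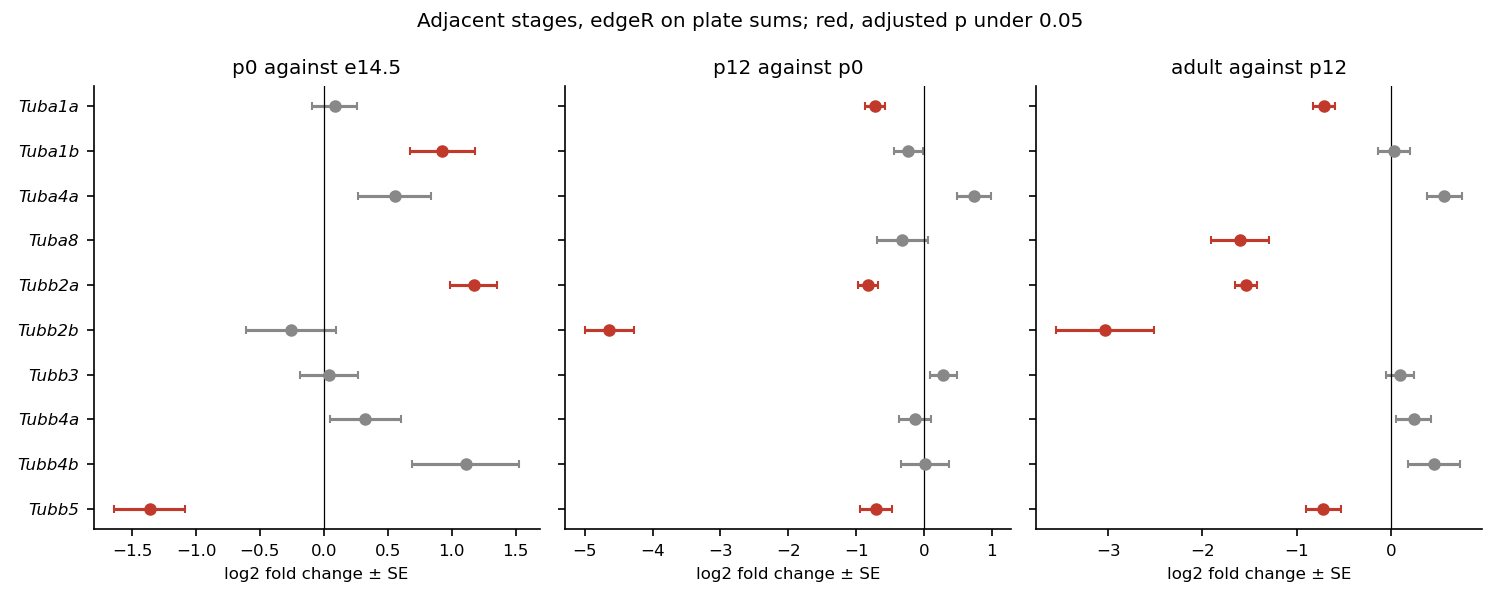
Fitted log2 fold change (x axis, ± SE) of each tubulin gene between adjacent stages, in red where the edgeR adjusted p was under 0.05. *Tuba8* is left out of the first panel, since it had no UMI at e14.5, and the value of *Tubb2b* in the last panel rests on 8 UMIs in all adult neurons. No red point lies to the right of 0 after p0.

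**Figure D3:**
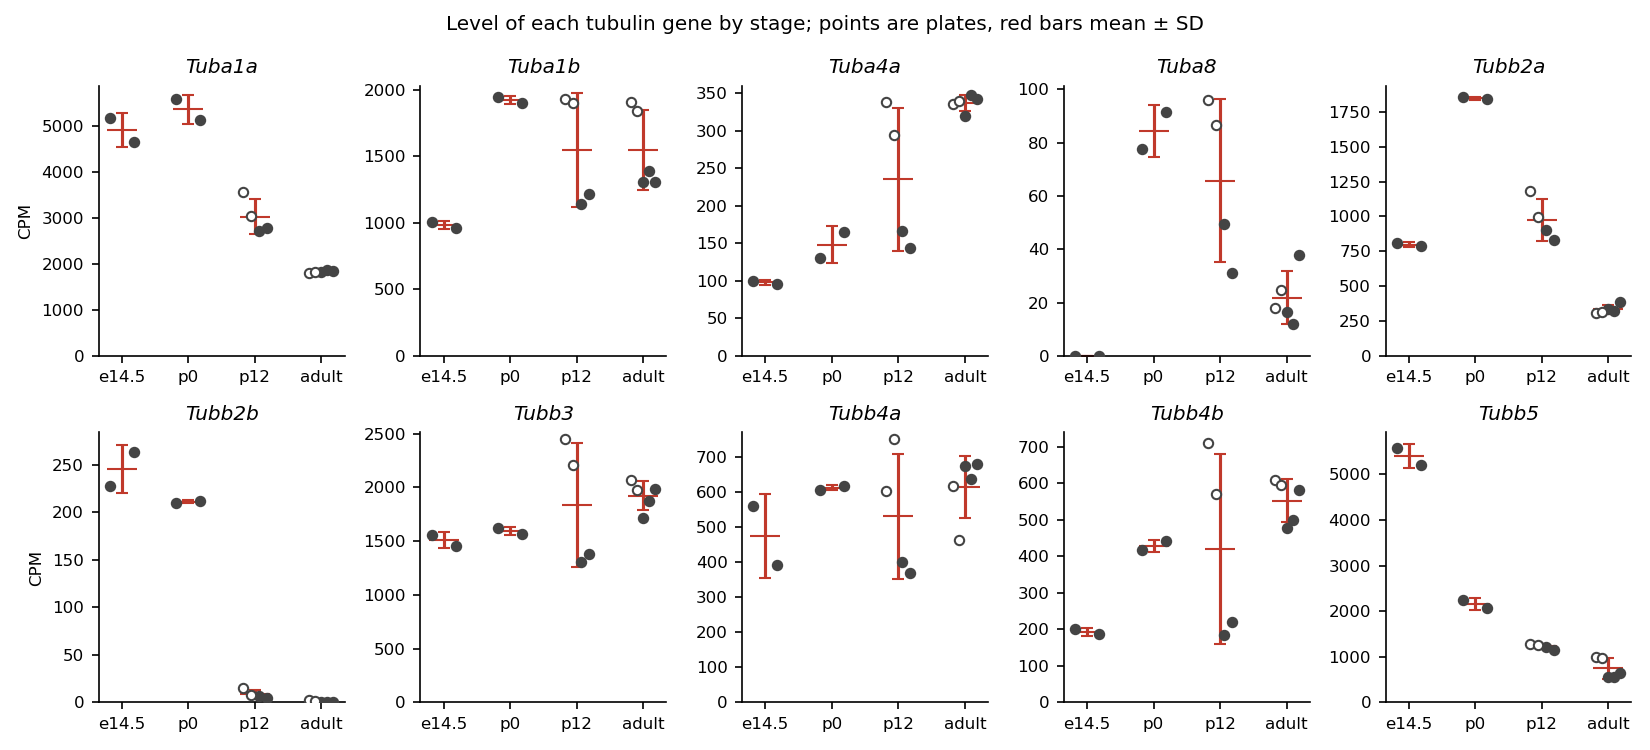
Level (y axis, CPM) of each tubulin gene by stage (x axis), 1 point a plate, with the mean and SD in red. Open points are replicates 1 and 2 at p12 and in the adult. *Tuba1a*, *Tubb2a* and *Tubb5* step down after p0, and for *Tuba1b*, *Tuba4a*, *Tubb3* and *Tubb4b* the open p12 points lie apart from the filled ones.

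*Tuba1a* (GRCm38 chr15:98949837-98953703) encodes the main α-tubulin of young neurons, and mutations of it disturb the layering of the brain. Its level was 5177 and 4656 CPM at e14.5, 5582 and 5138 at p0, 3559, 3033, 2725 and 2785 at p12 and 1795, 1816, 1829.5, 1878 and 1849 in the adult. The p0 and e14.5 plates overlapped, every p12 plate lay below them, and every adult plate lay below p12. The fall was called at both later steps (p12 against p0, log2 fold change -0.73 ± 0.15 SE, adjusted p = 0.00369; adult against p12, log2 fold change -0.71 ± 0.12 SE, adjusted p = 0.00155), while p0 and e14.5 gave 0.08 ± 0.18 SE, adjusted p = 0.759. The first of these calls was lost without p0 replicate 1 (adjusted p = 0.0648). Its share of the tubulin UMIs was 33.6% ± 0.535 at e14.5 (SD, n = 2 plates), 37.3% ± 0.993 at p0 (n = 2), 31.1% ± 3.38 at p12 (n = 4) and 23.3% ± 2.00 in the adult (n = 5), lower in the adult than at p12 on every plate (exact permutation p = 0.0159, the smallest that 5 plates against 4 allow).

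*Tuba1b* (chr15:98931425-98934565) encodes an α-tubulin that most dividing and non-dividing cells use. It stood at 1004 and 963 CPM at e14.5, 1945 and 1900.3 at p0, 1935, 1905, 1145 and 1214 at p12 and 1909, 1845, 1309, 1388 and 1305 in the adult. It was higher on both p0 plates than on both e14.5 plates, and from then on the plates fell into a high and a low set at both p12 and adult. The rise to p0 was called (log2 fold change 0.93 ± 0.25 SE, adjusted p = 0.0145), but the call was lost without any single e14.5 or p0 plate (adjusted p between 0.0545 and 0.0745) and with every neuron thinned at random to 7000 UMIs (0.0778). The later steps were not called (p12 against p0, -0.23 ± 0.21 SE, adjusted p = 0.504; adult against p12, 0.03 ± 0.17 SE, adjusted p = 0.932). Its share of the tubulin UMIs was 6.73% ± 0.200 at e14.5 (SD, n = 2 plates), 13.4% ± 0.208 at p0 (n = 2), 15.5% ± 1.30 at p12 (n = 4) and 19.5% ± 2.45 in the adult (n = 5). Adult and p12 shares differed in an exact permutation test (p = 0.0317), though 1 adult plate, replicate 5, lay within the range of p12.

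*Tuba4a* (chr1:75214228-75219865) encodes an α-tubulin without the final tyrosine. It was the only one of the 10 genes called higher in the adult than at p0 (log2 fold change 1.30 ± 0.25 SE, adjusted p = 0.000987). The plates read 100.05 and 95.7 CPM at e14.5, 131 and 165 at p0, 338, 294, 166 and 143 at p12 and 335, 339, 319.9, 347 and 342 in the adult. Every adult plate lay above both p0 plates, and both p0 plates above both e14.5 plates, while at p12 replicate 1 lay within the adult range, replicate 2 below it and replicates 3 and 4 near p0. No single step was called: p0 against e14.5 gave 0.55 ± 0.29 SE, adjusted p = 0.165, p12 against p0 0.73 ± 0.25 SE, adjusted p = 0.0543, and adult against p12 0.57 ± 0.19 SE, adjusted p = 0.0556. These last 2 lay near the threshold. p12 against p0 was called by DESeq2 (adjusted p = 0.0485), with all wells of at least 2000 genes (edgeR, 0.0162) and without any of 4 single plates (0.0167 to 0.0497). Adult against p12 was called in thinned neurons (0.0472), with all such wells (0.0284) and without p12 replicate 1 (0.0152). Its share of the tubulin UMIs was 0.670% ± 0.0186 at e14.5 (SD, n = 2 plates), 1.03% ± 0.203 at p0 (n = 2), 2.31% ± 0.482 at p12 (n = 4) and 4.27% ± 0.299 in the adult (n = 5), with no overlap between the adult and p12 plates (exact permutation p = 0.0159) or between later and earlier plates (p = 0.00280, the smallest that 9 plates against 4 allow). *Tuba4a* was found in 110 of 169 neurons at e14.5 (65.1%) and in all 208 adult neurons, and with every neuron thinned to 7000 UMIs in 50.3% and 88.0%.

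*Tuba8* (chr6:121210696-121226854) encodes the most divergent of these α-tubulins, known from muscle and testis, which ends in phenylalanine. Its level was 0 and 0 CPM at e14.5, 77.5 and 91.4 at p0, 95.9, 86.7, 49.3 and 31.1 at p12 and 18.1, 24.5, 16.6, 12.1 and 37.9 in the adult. None of 1888478 UMIs at e14.5 was of *Tuba8*, and none of the 169 neurons had one, which allows a share of up to 1.78% of neurons with a UMI (3 of 169, for counting error only; the 95% exact binomial interval reaches 2.16%). At p0, 43 of 55 neurons had one (78.2%, 95% exact binomial interval 65.0 to 88.2%), and thinned to 7000 UMIs 43.6% did, against 0 of the 151 e14.5 neurons of that depth. Set against a floor of 3 UMIs per e14.5 plate, it was at least 23.5-fold higher at p0, and the difference was called (edgeR adjusted p = 6.47e-05). From p12 to adult it fell (log2 fold change -1.60 ± 0.31 SE, adjusted p = 0.00501), with 1 adult plate, replicate 5 (37.9 CPM), above the lowest p12 plate, replicate 4 (31.1 CPM). That call was lost in thinned neurons (log2 fold change -0.73, adjusted p = 0.233). The level also differed between clusters, from 0 to 107 CPM over the adult cluster sums and from 11.2 to 112 over those at p12. Plates of both stages differ in their mix of clusters, and the part of cluster make-up in this fall was not tested. p12 against p0 gave -0.32 ± 0.37 SE, adjusted p = 0.603. *Tuba8* took at most 0.788% of the tubulin UMIs of a whole plate.

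*Tuba4a* and *Tuba8* together, the α-tubulin genes here without a final tyrosine codon, made up 1.63% ± 0.0580 of the α-tubulin UMIs at e14.5 (SD, n = 2 plates), 3.11% ± 0.584 at p0 (n = 2), 5.98% ± 1.52 at p12 (n = 4) and 9.61% ± 0.797 in the adult (n = 5). The lowest adult plate (8.70%) lay above the highest p12 plate (7.31%), the lowest p12 plate (4.17%) above the highest p0 plate (3.52%), and both p0 plates above both e14.5 plates. In the adult this was almost wholly *Tuba4a*. The α-tubulin UMIs are mostly of *Tuba1a* and *Tuba1b*, so these percentages carry the uncertainty over their copies.

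*Tubb5* (chr17:35833921-35838306) encodes a β-tubulin that is widely used, and abundant in neural progenitors. It stood at 5585 and 5209 CPM at e14.5, 2244 and 2069.97 at p0, 1288, 1255, 1222 and 1151 at p12 and 1004, 971, 549, 565 and 645 in the adult. The stages did not overlap, and each lay below the one before. All 3 steps were called: p0 against e14.5 (log2 fold change -1.36 ± 0.28 SE, adjusted p = 0.00282), p12 against p0 (log2 fold change -0.70 ± 0.23 SE, adjusted p = 0.0476) and adult against p12 (log2 fold change -0.72 ± 0.18 SE, adjusted p = 0.0187). The p12 call was close to the threshold. It was lost without the 42 adult neurons of no numbered cluster (edgeR adjusted p = 0.0722), without the filter (0.0552) and in thinned neurons (0.101). Either pair of p12 plates alone also lost it (0.0680 with replicates 1 and 2, 0.0999 with replicates 3 and 4). So did leaving out any of 10 of the 13 plates singly (adjusted p between 0.0541 and 0.24). The adult call was lost without p12 replicate 3 (0.0578), in thinned neurons (0.0501) and with p12 replicates 1 and 2 alone (0.109) or adult replicates 1 and 2 alone (0.165). Its share of the tubulin UMIs was 36.9% ± 0.362 at e14.5 (SD, n = 2 plates), 15.0% ± 0.379 at p0 (n = 2), 12.8% ± 2.18 at p12 (n = 4) and 9.31% ± 2.12 in the adult (n = 5). Most of the loss lay between e14.5 and p0, where stage and reporter cannot be told apart. In single e14.5 neurons the 10th and 90th percentiles of the *Tubb5* share were 22.1 and 50.3% (median 33.9%, 169 neurons), with medians of 23.4, 39.5, 39.3 and 28.1% in clusters 1 to 4 (41, 88, 34 and 6 neurons). At p0 they were 13.5 and 17.4% (median 15.1%, 55 neurons), where the median neuron held 587 tubulin UMIs in place of 152.

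*Tubb2a* and *Tubb2b* (chr13:34074274-34078007 and chr13:34126748-34130466) are neighbouring genes for near-identical neuronal β-tubulins, and mutations of *Tubb2b* disturb neuronal migration. *Tubb2a* stood at 809 and 787 CPM at e14.5, 1854 and 1840.5 at p0, 1180.3, 992, 899 and 832 at p12 and 305, 312, 338, 322 and 389 in the adult, higher on both p0 plates than on any other. It rose to p0 (log2 fold change 1.17 ± 0.18 SE, adjusted p = 0.000421), then fell to p12 (log2 fold change -0.82 ± 0.15 SE, adjusted p = 0.00162) and to adult (log2 fold change -1.54 ± 0.12 SE, adjusted p = 3.36e-06). *Tubb2b* stood at 228 and 263 CPM at e14.5, 209.7 and 212 at p0, 15.3, 7.35, 6.30 and 4.45 at p12 and 2.07, 1.12, 0.850, 0 and 0 in the adult. The step from e14.5 to p0 was not called (log2 fold change -0.26 ± 0.35 SE, adjusted p = 0.622). It was then nearly lost, with 35 UMIs of 4715907 at p12 and 8 of 9258366 in the adult. It was called lower at p12 than at p0 (log2 fold change -4.64 ± 0.36 SE, adjusted p = 2.22e-06) and lower again in the adult (edgeR adjusted p = 0.00193). Against a floor of 3 UMIs per adult plate (or the plate's own level where that was higher) it was at least 55.4-fold lower there than at p0. Set against p12 the same bound was only 1.18-fold, so the second fall lies near the counting floor. A *Tubb2b* UMI was found in 53 of 55 p0 neurons, 25 of 154 p12 neurons and 7 of 208 adult neurons. Their shares of the tubulin UMIs went from 12.9% (*Tubb2a*) and 1.47% (*Tubb2b*) at p0 to 4.24% and 0.0098% in the adult.

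*Tubb3* (chr8:123411424-123422015) encodes the β-tubulin that is nearly specific to neurons and is the target of the antibody TuJ1. Its level was 1562 and 1454 CPM at e14.5, 1623 and 1565 at p0, 2451, 2213, 1305 and 1379 at p12 and 2069.8, 1977, 1719, 1871 and 1981 in the adult. The 4 e14.5 and p0 plates lay between 1454 and 1623 CPM, the 5 adult plates between 1719 and 2070, and p12 spanned both. No step was called (p0 against e14.5, 0.04 ± 0.23 SE, adjusted p = 0.921; p12 against p0, 0.28 ± 0.20 SE, adjusted p = 0.353; adult against p12, 0.10 ± 0.15 SE, adjusted p = 0.707). As a share of the tubulin UMIs it was 10.3% ± 0.0892 at e14.5 (SD, n = 2 plates), 11.1% ± 0.0692 at p0 (n = 2), 18.3% ± 2.05 at p12 (n = 4) and 24.3% ± 0.759 in the adult (n = 5). Adult and p12 shares did not overlap (exact permutation p = 0.0159), nor did later and earlier ones (p = 0.00280). As CPM neither difference passed the exact permutation test (p = 0.762 and 0.0951). Among β-tubulin UMIs alone, *Tubb3* went from 17.5% ± 0.0573 at e14.5 (SD, n = 2 plates) to 46.2% ± 1.17 in the adult (n = 5).

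*Tubb4a* (chr17:57080066-57087782), of neurons and oligodendrocytes, and *Tubb4b* (chr2:25222160-25224702), broadly expressed and used in cilia, took small shares in the embryo. *Tubb4a* stood at 560.5 and 391 CPM at e14.5, 607 and 617 at p0, 602, 749.8, 401 and 369 at p12 and 617, 464, 675, 637 and 679 in the adult, with overlap between all stages but p0 and e14.5. No step was called for it (p0 against e14.5, 0.32 ± 0.28 SE, adjusted p = 0.406; p12 against p0, -0.13 ± 0.24 SE, adjusted p = 0.755; adult against p12, 0.24 ± 0.18 SE, adjusted p = 0.397). *Tubb4b* stood at 200.1 and 186 CPM at e14.5, 416 and 441 at p0, 711, 569, 183 and 219 at p12 and 608, 595, 478, 498 and 580.4 in the adult. Both p0 plates were above both e14.5 plates (log2 fold change 1.11 ± 0.42 SE, adjusted p = 0.0620), a difference that was called without the filter on low counts (edgeR adjusted p = 0.00106) and without p12 replicate 1, 3 or 4 (0.0278 to 0.0456), and the p12 plates, from 183 to 711 CPM, spanned both p0 and the adult. p12 against p0 gave 0.01 ± 0.36 SE, adjusted p = 0.986, and adult against p12 0.46 ± 0.28 SE, adjusted p = 0.281. By share, *Tubb4b* was 1.32% ± 0.00947 at e14.5 (SD, n = 2 plates), 2.98% ± 0.217 at p0 (n = 2), 3.98% ± 1.77 at p12 (n = 4) and 6.96% ± 0.352 in the adult (n = 5), and the adult plates lay above every p12 plate (exact permutation p = 0.0159). The *Tubb4a* share was 3.24% ± 0.631 at e14.5 (SD, n = 2 plates), 4.26% ± 0.186 at p0 (n = 2), 5.30% ± 0.988 at p12 (n = 4) and 7.84% ± 1.51 in the adult (n = 5) (adult against p12, exact permutation p = 0.0317). In each of the families of tests on shares, 11 values were tested (the 10 shares and the total), and the p-values are as computed, not adjusted. Those of *Tuba1b*, *Tuba8* and *Tubb4a* between adult and p12 rose to between 0.0571 and 0.0714 when any of 7 of the 9 plates was left out singly.

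Much of the spread at p12 lay between pairs of plates. The p12 neurons fall into 5 clusters. Replicates 1 and 2 hold 25 kept neurons, all of clusters 2 and 3, and replicates 3 and 4 hold 129, of clusters 1, 4 and 5. The pairs share no cluster, so plate and cluster cannot be told apart there, and 2 plates against 2 can give no exact p below 0.333. On replicates 1 and 2, *Tubb4b* stood at 711 and 569 CPM, and on replicates 3 and 4 at 183 and 219. All 10 genes were higher on both plates of the first pair, by little for *Tubb5*, at 1288 and 1255 against 1222 and 1151 CPM. Depth ran the same way, at 65165 and 52324 UMIs per neuron in the first pair and 28433 and 21753 in the second, and so did the glial markers, at 719 and 420.5 against 233 and 296 CPM. The share of tubulin in all UMIs was 1.22 and 1.11% against 0.810 and 0.813%.

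Which pair stood for p12 decided several calls, in fits added after the data were seen. With replicates 3 and 4 alone, 9 of the 10 genes were called between p12 and adult, 5 lower and 4 higher (all genes, 25.9%), against 5 lower and none higher with all plates. With replicates 1 and 2 alone 4 were called, all lower (all genes, 4.92%), and *Tubb5* was not (-0.66, edgeR adjusted p = 0.109). The 4 called higher with replicates 3 and 4 alone were *Tubb4b* (1.35 ± 0.16 SE, adjusted p = 9.18e-05), *Tuba4a* (1.02 ± 0.15 SE, adjusted p = 0.000517), *Tubb4a* (0.57 ± 0.18 SE, adjusted p = 0.0359) and *Tubb3* (0.41 ± 0.13 SE, adjusted p = 0.0287). With replicates 1 and 2 alone the same 4 gave -0.10, 0.21, -0.03 and -0.16 (log2), with adjusted p between 0.466 and 0.956. The p12 against p0 difference of *Tubb4b* turned over with the pair, from 0.58 ± 0.18 SE, adjusted p = 0.0381 with replicates 1 and 2 to -0.87 ± 0.18 SE, adjusted p = 0.00363 with replicates 3 and 4. *Tuba4a* and *Tubb3* were called higher at p12 than at p0 with the first pair (log2 fold change 1.09 and 0.55) and not with the second (0.28 and -0.03). The fall of *Tuba8* to the adult was called with either pair but was larger with the first (-2.04 against -1.09). *Tuba1a* and *Tubb2a* kept their size, at -0.71 and -0.74 for *Tuba1a* and -0.77 and -0.88 for *Tubb2a* from p0 to p12, and -0.73 and -0.69, and -1.59 and -1.48, from p12 to adult.

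**Figure D4:**
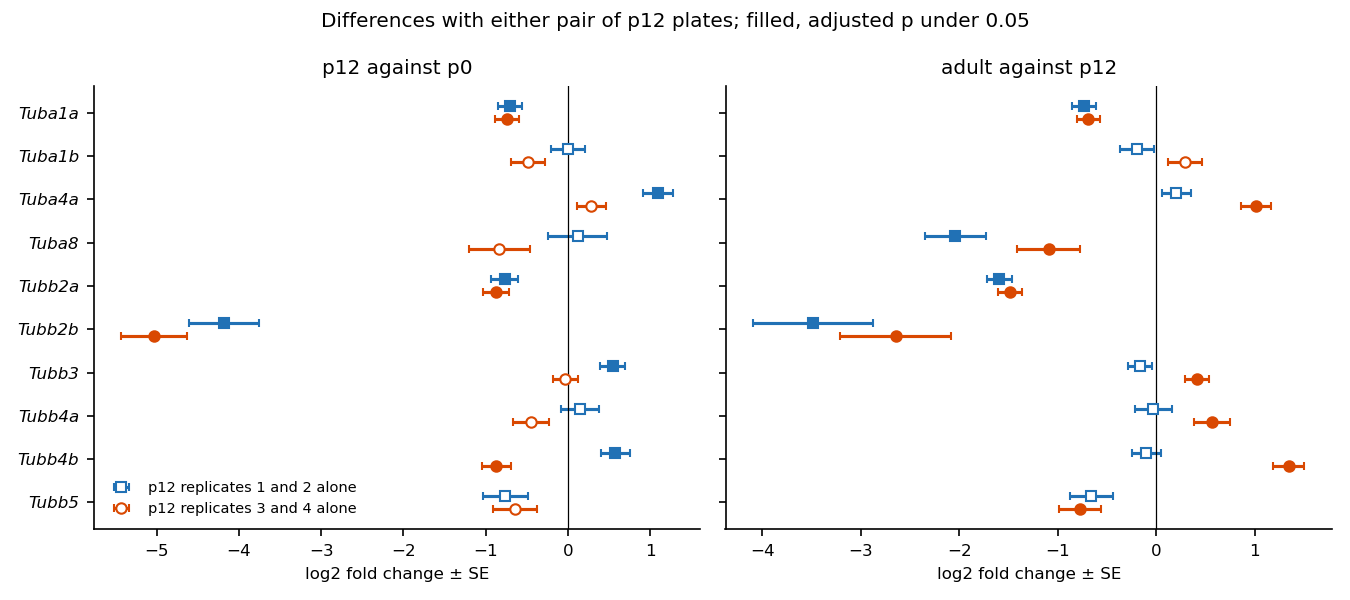
Fitted log2 fold change (x axis, ± SE) of each tubulin gene with p12 replicates 1 and 2 alone (blue squares) or replicates 3 and 4 alone (orange circles), filled where the edgeR adjusted p was under 0.05. *Tuba1a* and *Tubb2a* stay in place, and *Tubb4b* lies on opposite sides of 0 from p0 to p12.

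The adult plates also formed sets. Adult clusters 2 and 4 lie on replicates 1 and 2 alone, and once this was seen those plates were compared with the other 3 within clusters 1 and 5, which have at least 2 neurons on every plate. In that fit, 4 of the 9 tubulin genes tested were called, where 16.6% of all 8528 genes were. *Tubb5* was higher on replicates 1 and 2 (log2 fold change 0.79 ± 0.10 SE, adjusted p = 2.05e-06), as was *Tuba1b* (log2 fold change 0.54 ± 0.09 SE, adjusted p = 7.33e-05). In cluster 1 *Tubb5* stood at 833, 870.00, 469, 475 and 423 CPM on replicates 1 to 5, and in cluster 5 at 848, 863, 462, 559 and 561. *Tuba1b* stood at 1517, 1591, 1118, 1235 and 1022 CPM in cluster 1 and at 2077, 1802, 1119, 1342 and 1274 in cluster 5. In both clusters the first 2 plates lay above the other 3 for both genes. *Tubb4b* was also called higher (0.32) and *Tubb4a* lower (-0.34), but either call was lost when single plates were left out, 4 of 5 for *Tubb4b* and 3 of 5 for *Tubb4a*, where replicate 2 moved the value most (-0.12 without it). That fit takes 2 sums from each plate, 10 sums of 5 plates, so its p-values are too small for a difference between plates. With 1 sum a plate, in fits added after the data were seen, *Tubb5* and *Tuba1b* were called higher in cluster 1 alone (0.87 and 0.44, edgeR adjusted p = 0.000181 and 0.0280; all genes, 10.8%) and in cluster 5 alone (0.69 and 0.62, edgeR adjusted p = 0.0155 and 0.0148; all genes, 8.40%), and *Tubb4b* and *Tubb4a* in neither (0.127 to 0.245). In the fit of both clusters *Tuba1a* differed by 0.02 ± 0.08 (SE, edgeR adjusted p = 0.921). With adult replicates 3 to 5 alone the fall of *Tubb5* from p12 was -1.09 ± 0.14 SE, adjusted p = 0.000404, and with replicates 1 and 2 alone -0.31 ± 0.15 SE, adjusted p = 0.165.

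Among the 5 adult clusters, *Tuba8* was low in clusters 1 and 5 and higher in clusters 2, 3 and 4. The clusters had been found in these same neurons, so the levels below are a description, and calls among clusters say only how far plates repeat. Cluster 1 was matched to group Ia spindle afferents and cluster 5 to Golgi tendon organ afferents, in staining experiments not analysed here, and clusters 2 to 4 were put forward by inference as group II spindle afferents. In sums of at least 2 neurons of a cluster on a plate, *Tuba8* stood at 96.2 and 74.1 CPM in cluster 2, 107, 38.9, 39.2 and 86.3 in cluster 3 and 39.3 and 35.8 in cluster 4. It stood at 8.33, 1.63, 10.7, 5.17 and 25.2 CPM in cluster 1, and at 0, 2.10, 3.30, 2.22 and 0 in cluster 5. Every sum of clusters 2, 3 and 4 lay above every sum of clusters 1 and 5, the ranges of cluster 3 overlapped those of clusters 2 and 4, and cluster 5 overlapped cluster 1. A UMI was found in 13 of 15 neurons of cluster 2, 25 of 41 of cluster 3 and 15 of 28 of cluster 4, against 8 of 51 of cluster 1 and 3 of 31 of cluster 5. The neurons of clusters 1 and 5 were the deeper ones (median 59922 and 57694 UMIs, against 31306, 35599 and 20138 in clusters 2, 3 and 4), and thinned to 7000 UMIs the shares with a UMI were 46.7, 19.5 and 25.0% in clusters 2 to 4 and 5.88 and 6.45% in clusters 1 and 5. The glial markers overlapped between these clusters, from 236 to 988 CPM in the sums of clusters 2 to 4 and from 102 to 771 in those of clusters 1 and 5.

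**Figure D5:**
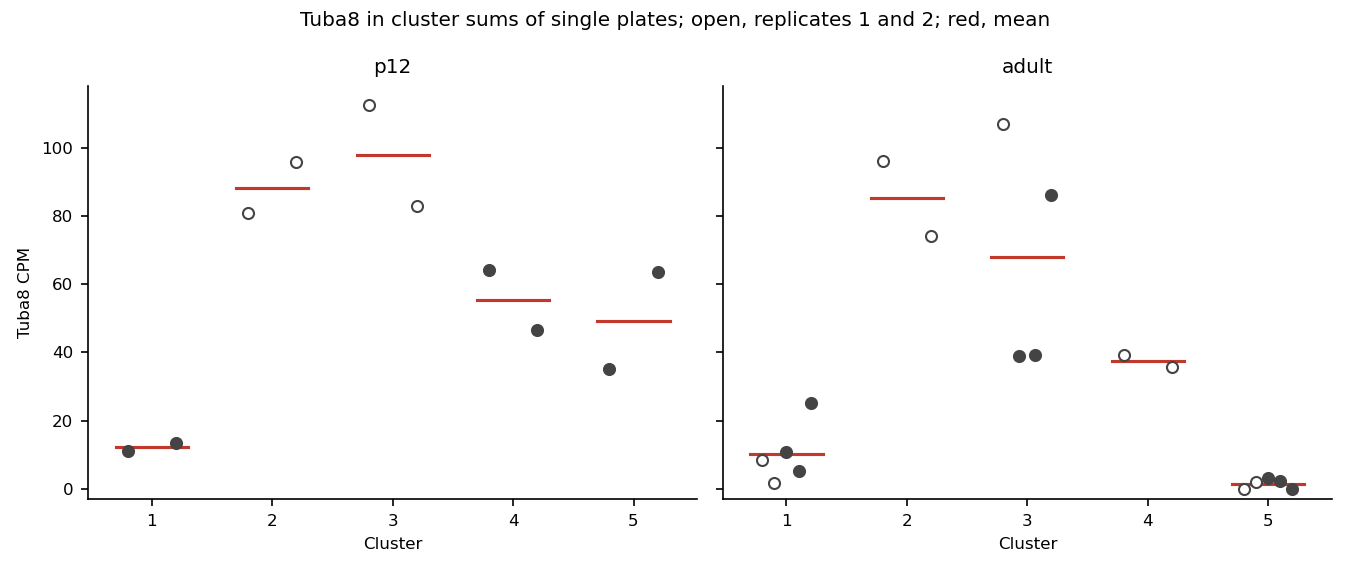
*Tuba8* (y axis, CPM) in the summed neurons of each cluster (x axis) on single plates at p12 and in the adult, with open points for replicates 1 and 2 and the mean in red. Adult clusters 1 and 5 lie between 0 and 25.2 CPM and clusters 2 to 4 between 35.8 and 107, and p12 cluster 1 lies below the other p12 clusters.

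Across all 5 adult clusters in 1 fit, 3 of the 9 genes tested were called (*Tuba8*, *Tubb5* and *Tuba1a*; *Tubb2b* was too low to be tested), where 9.67% of 7370 genes were. *Tubb5* stood at 1434 and 1037 CPM in cluster 2 and 1232 and 1469 in cluster 4, which lie on replicates 1 and 2, and 474, 532, 559 and 621 in cluster 3 on replicates 2 to 5. On replicates 1 and 2, clusters 2 and 4 thus lay above clusters 1 and 5, and on replicate 2 cluster 3, a sum of 2 neurons there, lay below them. With plate as a block 5 were called (all genes, 16.0%), with *Tuba1b* (edgeR adjusted p = 0.00145) and *Tubb4a* (0.00139) added. The *Tubb5* call was kept in that fit and within replicates 1 and 2 alone. It was lost without replicate 1 (edgeR adjusted p = 0.0855) and within replicates 3 to 5 (0.268), which hold clusters 1, 3 and 5, and that of *Tuba1a* when any single plate was left out (0.0843 to 0.398). *Tuba1a* was highest in cluster 4, at 2085 and 2639.8 CPM, against 1505, 1549, 1605, 1675 and 1552 in cluster 1. The call of *Tuba8* was kept in every alternative in which it was tested, and it was too low to be tested in thinned neurons. Set singly against the mean of the other 4, cluster 1 had no tubulin gene called (all genes, 5.69%; 3 of 9 by DESeq2, and 4 of 9 at an unadjusted edgeR p under 0.05), clusters 2 and 3 had *Tuba8* higher (all genes, 0.0271% and 0.0950%), cluster 4 *Tuba1a* and *Tubb5* higher (2.73%) and cluster 5 *Tuba8* lower (4.03%). With plate as a block cluster 1 had 5 called, all lower (all genes, 12.6%), *Tuba1b* (edgeR adjusted p = 0.000253), *Tuba1a* (0.00191), *Tubb4a* (0.00380), *Tubb5* (0.00868) and *Tuba8* (0.0227). In that fit *Tubb4a* was added in cluster 4 (0.00861; all genes, 4.88%), and cluster 3 lost *Tuba8* (0.109; all genes, 0.421%). Of the single calls without the block, that of *Tuba8* in cluster 5 was kept without any single plate. In cluster 3 *Tuba8* lost its call without any of the 5 plates, in cluster 2 without any of 3, and both calls in cluster 4 without any of the 5. Between clusters 1 and 5 none was called (all genes, 4.76%; none by DESeq2, 1 at an unadjusted edgeR p under 0.05). *Tuba4a*, *Tubb2a*, *Tubb3* and *Tubb4b* were not called across the adult clusters in any alternative. *Tubb3* stood at 1853, 1797, 1672, 1711 and 1798 CPM in cluster 1 and 2274, 1934, 1389.5, 1868 and 1759 in cluster 5.

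At p12, all 9 genes tested were called across the 5 clusters, where 31.5% of 6209 genes were, but clusters 2 and 3 lie on 1 pair of plates and clusters 1, 4 and 5 on the other. Leaving out either of 2 of the 4 plates ended the calls of *Tuba1a* (edgeR adjusted p = 0.145 and 0.431), *Tubb2a* (0.211 and 0.607) and *Tubb5* (0.197 and 0.339). Within replicates 3 and 4 alone, 4 were called (all genes, 9.58%): *Tuba8* (edgeR adjusted p = 0.00166), *Tubb2a* (0.02), *Tubb5* (0.0238) and *Tuba1a* (0.0378). *Tuba8* there stood at 11.2 and 13.4 CPM in cluster 1, 64.1 and 46.6 in cluster 4 and 35.0 and 63.7 in cluster 5, and on replicates 1 and 2 at 80.8 and 95.7 in cluster 2 and 112 and 83.0 in cluster 3. Cluster 1 was the lowest on both of its plates, with a UMI in 11 of 63 neurons against 42 of 58 in cluster 4, and 8.20% against 32.8% in neurons thinned to 7000 UMIs. *Tubb2a* stood at 1306 and 917 CPM in cluster 5, above 903 and 838 in cluster 1 and 795 and 814 in cluster 4 on the same plates. *Tubb5* was highest in cluster 1 of these 3, at 1501 and 1238 CPM, and lowest in cluster 5, at 999.98 and 904. *Tuba1a* ran in the same order, from 2954 and 2961 CPM in cluster 1 to 2347 and 2101 in cluster 5. At p0, *Tuba8* was found in 27 of 35, 11 of 12 and 5 of 8 neurons of clusters 1, 2 and 3.

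The genes whose level ran most like that of *Tuba8* over the 18 adult cluster sums, by Pearson's r of log2 CPM among 7370 genes, were *Nxph1* (r = 0.863), *Fgf11* (0.861), *Pink1* (0.861), *Clu* (0.853) and *Eml2* (0.846). The sums share plates and clusters, so these are descriptions. *Nxph1*, for a neurexin ligand, averaged 6.59 CPM in cluster 1 and 2.81 in cluster 5, against 54.2, 57.8 and 86.1 in clusters 2, 3 and 4. *Fgf11*, of the intracellular fibroblast growth factor homologous factors, averaged 9.01 and 3.13 CPM against 64.8, 53.8 and 36.8. *Eml2* encodes a microtubule-binding protein and differed far less between clusters, from 102 CPM in cluster 1 to 154 in cluster 3. *Pink1*, a mitochondrial kinase, and *Clu*, for clusterin, were abundant throughout, at 156 to 270 and 930.1 to 1801 CPM.

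The proteins that fold, modify and bind tubulin were read from lists of named genes. Of 15 genes listed with the folding machinery (tubulin cofactors, genes related to them and the chaperonin), all were tested. Whether folding itself changed was not tested. From p0 to p12, 1 was called higher, *Tbcel*, named as like cofactor E (2.07 ± 0.48 SE, adjusted p = 0.00764). In that step 1 was called lower, *Cct4*, a chaperonin subunit (-1.06 ± 0.23 SE, adjusted p = 0.00590). From p12 to adult none of the 15 was called (edgeR, with 18.1% and 14.1% of all genes called in these steps). Their median log2 fold change was -0.23 and -0.02 in these steps, beside 0.02 and 0.04 for all genes. None of the 6 other tubulin genes tested, of 10 listed, was called in either step (medians -0.77 and 0.06).

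Of 22 tubulin modifying enzymes, 15 were tested. At p12, 2 were higher than at p0 and 1 lower, a share near that of all genes called (18.1%). *Ttll7*, a glutamylase of β-tubulin tails, ranged from 360.04 to 376 CPM at p0 and from 719.97 to 956 at p12 (1.31 ± 0.26 SE, adjusted p = 0.00298). *Ttl*, the ligase that adds the final tyrosine to α-tubulin, ranged from 58.5 to 64.2 CPM at p0 and from 95.5 to 155 at p12 (1.11 ± 0.23 SE, adjusted p = 0.00340). *Atat1*, the α-tubulin acetyltransferase, ranged from 42.4 to 44.6 CPM at p0 and from 2.22 to 13.2 at p12 (-2.43 ± 0.36 SE, adjusted p = 0.000373) and had stood at 109 to 128 at e14.5. Between p12 and adult 2 were called (all genes, 14.1%). *Agtpbp1*, which trims glutamates from tubulin, was higher in the adult (0.67 ± 0.14 SE, adjusted p = 0.00610) and *Svbp*, the partner of the enzymes that remove the final tyrosine, lower, at 22.3 to 40.4 against 38.2 to 100.1 CPM (-1.20 ± 0.28 SE, adjusted p = 0.0126). The medians of the list were 0.10 and 0.15 in the 2 steps.

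Of 25 microtubule associated proteins, 23 were tested, and both directions were found. From p0 to p12, 4 rose and 6 fell (all genes called in either direction, 18.1%). *Map1a*, a structural protein of mature axons and dendrites, rose (1.38 ± 0.19 SE, adjusted p = 0.000160). Its plates ranged from 53.9 to 78.6 CPM at e14.5, 395 to 406 at p0, 842 to 1087 at p12 and 1279.5 to 1473 in the adult. *Map7d2*, which recruits kinesin, rose at both steps (1.23 ± 0.26 SE, adjusted p = 0.00427, and 1.14 ± 0.19 SE, adjusted p = 0.00179). Its p12 plates ranged widely, from 370 to 976 CPM, against 285 to 293 at p0 and 1237 to 1564 in the adult. *Dcx*, doublecortin of young migrating neurons, fell from 38.0 to 43.5 CPM at p0 to 1 UMI in all 154 p12 neurons, at least 8.62-fold against a floor of 3 UMIs per plate (edgeR adjusted p = 2.22e-06). Its relative *Dclk1* fell too (-2.32 ± 0.37 SE, adjusted p = 0.000609). From p12 to adult, 3 rose and 3 fell (all genes, 14.1%), among them *Mapre3*, of the growing end, upward (0.57 ± 0.15 SE, adjusted p = 0.0187), and the growth cone proteins *Crmp1* (-1.23 ± 0.16 SE, adjusted p = 0.000290) and *Dpysl3* (-0.74 ± 0.12 SE, adjusted p = 0.00160) downward. *Mapre1*, of the same end-binding family, named after its value was seen, was the third that fell (-0.61 ± 0.15 SE, adjusted p = 0.0135). The list's medians were 0.17 and 0.10.

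Of 12 destabilizing and severing proteins, 10 were tested. From p0 to p12, 2 were called, both lower (all genes, 18.1%), and from p12 to adult 2 lower and 1 higher (all genes, 14.1%). Those called lower were *Stmn1*, *Stmn4* and *Stmn2*, 3 of the 4 stathmins, which bind free tubulin dimers, and *Stmn3*, named after its value was seen, was not called in either step (-0.03 and -0.08, log2). *Stmn1* ranged from 769.7 to 782 CPM at e14.5 and 62.9 to 70.7 at p0, from 2.10 to 14.1 at p12 (-3.05 ± 0.41 SE, adjusted p = 0.000151) and from 1.12 to 4.66 in the adult (-1.53 ± 0.47 SE, adjusted p = 0.0434). The last of these fold changes rests on few counts, 32 UMIs at p12 and 23 in the adult. *Stmn4* fell from p0 to p12 (-2.14 ± 0.53 SE, adjusted p = 0.0114). *Stmn2*, the axonal stathmin, was abundant, at 1733 to 2499 CPM at p12 and 1369.9 to 1645 in the adult, with a small fall between these (-0.40 ± 0.12 SE, adjusted p = 0.0420). *Katnal1*, a severing enzyme of the katanin family, was higher in the adult than at p12 (0.87 ± 0.17 SE, adjusted p = 0.00445). The medians of the list were -0.22 and -0.05.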

How the data were processed

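Single neurons were sequenced with a plate-based 3′ method, and the deposited files hold whole-number UMI counts per gene and well. The authors aligned reads with STAR to mm10 (GRCm38) under an NCBI annotation, and kept neurons with more than 2000 genes and low levels of glial transcripts, *Apoe* among them. The version of STAR, strand and the handling of reads with several matches are not given in the sources used here. Kept neurons and their clusters were taken from the deposited annotation, the pooled table was not used, and 0 columns belonged to unmapped samples. UMIs were summed by plate, or by cluster and plate where at least 2 neurons were present. Sums were fitted with edgeR 4.0.16 (TMM, filterByExpr, quasi-likelihood test, all stages in 1 fit) in R 4.3.3, with Benjamini-Hochberg adjustment over all genes tested. DESeq2 1.42.0, its size factors in edgeR, no filter, neurons thinned to 7000 UMIs, all wells with at least 2000 genes, other sizes of sums, plate as a block, e14.5 clusters 1 and 2 alone, means over single neurons or CPM for the shares, and single plates left out were the alternatives. Fits on pairs or sets of plates, on adult neurons of numbered clusters, and on adult clusters 1 and 5 singly were chosen after seeing the data. Shares were compared by two-sided exact permutation tests (Python 3.11.15, scipy 1.17.1). Intervals are Clopper-Pearson at 95%, and floors are 3 UMIs per plate, both for counting error only. Scripts were tested on simulated data. Some sequences and 1 marker gene are not reported here.

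The 10 genes and the other lists were chosen with earlier results of these data known. All 10 are named. Of each other list, the 2 largest rises and 2 largest falls among called genes were named, in p12 against p0 and adult against p12, and the 5 genes with the highest r to *Tuba8* over the adult cluster sums.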

Additional observations from a re-analysis of the deposited data

Results flagged for a closer look

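In 72 groups of 4 or 5 values (the CPM and share of each gene and the tubulin total over the p12 or adult plates, and the CPM over the plate sums of adult clusters 1, 3 and 5), 4 had a value set apart from the rest by more than Dixon's 95% limit, where chance flags about 1 in 20 groups. *Tubb4a* stood at 464 CPM on adult replicate 2, below the other adult plates (617 to 679 CPM). In the sums of adult cluster 5 it stood at 397 CPM on the same plate, against 642 to 695 CPM on the others, so the 2 values share neurons. *Tubb2a* stood at 492 CPM in adult cluster 1 on replicate 5, a sum of 3 neurons, against 282 to 326 CPM on the other plates. *Tubb2b* stood at 1.39 CPM in adult cluster 3 on replicate 3, which is 1 UMI, with 0 on the other plates.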

How the results depend on the processing

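The number of tubulin genes called (edgeR, adjusted p under 0.05) between p0 and adult was 6 in all 22 alternatives, and that between p0 and e14.5 lay between 3 and 5. From p0 to p12 it was 4, 2 to 5 with single plates left out (2 without p0 replicate 1), and 6 with p12 replicates 1 and 2 alone. From p12 to adult it was 5, 4 to 6 with single plates left out, 4 in thinned neurons, with p12 replicates 1 and 2 alone and with adult replicates 1 and 2 alone, and 9 with p12 replicates 3 and 4 alone, where *Tubb4b* from p0 to p12 reversed to -0.87. The share of *Tuba8* later against earlier was higher by 0.143 percentage points, and as CPM lower, at -0.836 (exact permutation p = 0.937).

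Calls among clusters moved more. Cluster 1 had 0, and 3 by DESeq2 or its size factors, 1 without the filter or with a minimum of 4 neurons in a sum, 5 with plate as a block, and 0 to 1 with single plates left out. Cluster 2 had 1, and 0 in thinned neurons, 2 within replicates 1 and 2, and 0 to 1 with plates left out. Cluster 3 had 1, and 2 by DESeq2 or without the filter, 0 with the plate block, and 0 when single plates were left out. Cluster 4 had 2, and 3 with plate as a block or within replicates 1 and 2, 1 without the filter or with the minimum of neurons in a sum set to 1 or to 4, 0 in thinned neurons and 0 without any single plate. Cluster 5 had 1, and 0 in thinned neurons, where *Tuba8* was too low to be tested. Across the adult clusters the count was 3, and 5 with plate as a block, 1 within replicates 3 to 5, and 1 to 2 with plates left out. Between plate sets it was 4, and 2 by DESeq2 or in either cluster alone, and 2 to 4 with plates left out. Across the p12 clusters it was 9, and 5 in thinned neurons, 4 within replicates 3 and 4, and 6 to 9 with plates left out. The causes of these moves were not tested, except that fewer plates or neurons entered some fits.

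Of single values for genes, 2057 kept their side of the threshold, 147 lost a call, 47 gained one and 2 reversed. Of the values past the threshold in neither fit, 91 changed sign.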

Other observations

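The wells that the authors left out, where at least 2000 genes were found, held tdTomato+ cells sorted onto the same plates. Per the paper, wells contaminated by attached satellite cells were removed, so these wells need not be a separate population. They were rich in the satellite glia gene *Apoe*, at 4288 to 9002 CPM at p12 and in the adult against at most 597 CPM in the sums of kept neurons. On p12 replicates 1 and 2 (76 and 77 such wells), *Tubb4b* stood at 636 and 614 CPM, and on replicates 3 and 4 (29 and 34 wells) at 165 and 201. *Tuba8* stood at 115 and 111 CPM on the first pair and at 25.4 and 37.5 on the second. *Tubb3* stood at 2226 and 2237 CPM against 1198 and 1337. In the adult, *Tubb5* stood at 1011 and 1032 CPM in the left-out wells of replicates 1 and 2 and at 594, 632 and 607 in those of replicates 3 to 5. *Tubb4b* stood at 499 and 479 CPM in the first set and at 461, 484 and 585 in the second, which overlap. *Tuba1a* differed little there, from 1753 to 1828 CPM over the 5 adult plates.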
